A study of Mus musculus with 4 samples.

Results

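Pericytes and smooth muscle cells, together called mural cells, were followed in mouse left ventricle through 10 genes picked by symbol from the 32285 genes of the deposited matrices. There were 6 pericyte members (Pdgfrb, Kcnj8, Notch3, Vtn, Cspg4 and Rgs5) and 4 contractile members of smooth muscle (Myh11, Acta2, Tagln and Myl9), and each of the 10 symbols was found. The 4 libraries came from wild-type male C57BL/6J mice, with 1 library of sham and 1 of ischemia and reperfusion (I/R) at each of 2 ages. Where values follow one another without a name, young sham comes first, then young I/R, then aged sham and then aged I/R. Young mice were 3 to 5 months old and aged mice 24 to 26 months old. I/R mice had 45 min of ischemia by surgery on the left anterior descending coronary artery (LAD) and 24 h of reperfusion, and the whole left ventricle was dissociated, so that infarcted and remote muscle were not separated. Sham mice are sham-operated in the paper and unaltered healthy mice in the sample labels. The number of mice behind each library was not given in the sources used here. No animal carried a transgene or marker allele for mural cells, and the 4 cell types that the labels name (cardiomyocyte, endothelial, fibroblast and macrophage) include no mural cell.

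Pericytes sit on the outside of capillaries, inside the basement membrane that they share with endothelial cells, and smooth muscle cells wrap arterioles and larger vessels. Endothelial PDGF-B holds pericytes at the vessel through the receptor PDGFR-beta, and Notch ligands on endothelium act on NOTCH3 of the mural cell. Contractile smooth muscle builds its filaments from smooth muscle myosin and actin, and serum response factor (SRF) with its partner myocardin switches on those genes through CArG boxes. In the heart, pericytes are a frequent cell of the capillary bed, and they can constrict capillaries after ischemia.

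With 1 library per condition there were no replicates and no test. Each interval given is an exact 95% interval that covers the counting error of that library alone (Poisson for a level, conditional for a ratio of levels, binomial for a share). Neither differences between mice nor those between preparations are in it. Intervals of summed pairs are narrower than counting error, for the reason given with them. Libraries held 91124 to 102883 barcodes and 25836175 to 66767829 UMIs, a UMI being 1 counted RNA molecule, with median UMIs per barcode of 244 in sham and 374 after I/R in young mice, and 391 in sham and 675 after I/R in aged mice. Between 7.44% and 7.92% of the barcodes of a library had a sequence that was also found in another library. Markers of cardiomyocytes were counted in 100% of barcodes of each library, also in those with mural genes.

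Levels are given as CPM, the UMIs of a gene over all barcodes of a library per 1000000 UMIs of that library. The 6 pericyte members summed to 466 CPM in sham and 354 after I/R in young mice, and 507 in sham and 454 after I/R in aged mice. The 4 contractile members summed to 210 CPM in sham and 186 after I/R in young mice, and 236 in sham and 225 after I/R in aged mice. On this scale both sums were lowest in young I/R and highest in aged sham. Scaled by the median of gene-wise ratios, the pericyte sum was lowest in young sham, with log2 ratios over it of 0.12 after I/R in young mice, and 0.27 in sham and 0.02 after I/R in aged mice. The contractile sum was then also lowest in young sham but highest in young I/R, at 0.33, with 0.31 in sham and 0.16 after I/R in aged mice. Fewer mural cells and less RNA per mural cell cannot be told apart in such sums. Reads were counted at the 3' end of transcripts, so levels are compared between libraries for each gene and not between genes.

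**Figure D1:**
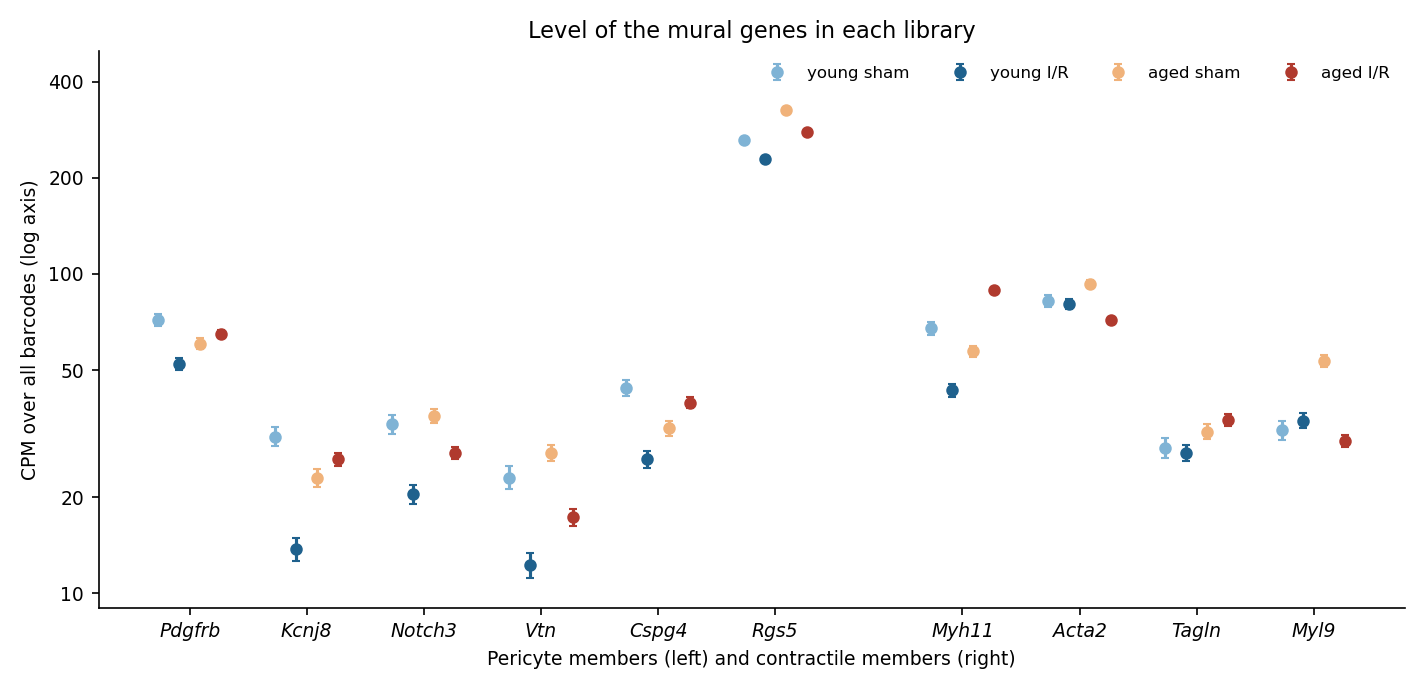
Level of each member in CPM over all barcodes (log axis), with 1 point per library and exact 95% Poisson intervals, pericyte members on the left and contractile members on the right. The dark blue points of young I/R are the lowest for the 6 pericyte members and for Myh11 and Tagln, while Myl9 peaks in aged sham at 53.4 CPM and Myh11 in aged I/R at 88.9 CPM.

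Pdgfrb, the receptor for PDGF-B, lies at chr18:61045150-61085061 on GRCm38 (plus strand). It was counted at 71.7 CPM (68.5 to 75.0) in sham and 52.2 (49.98 to 54.5) after I/R in young mice, and 60.4 (58.0 to 62.8) in sham and 64.8 (62.9 to 66.8) after I/R in aged mice. Young sham was high and young I/R low, with a highest to lowest fold of 1.37. Notch3, the receptor by which mural cells read endothelial Notch ligands, lies at chr17:32120820-32166852 (minus strand) and overlaps Gm17276 on the opposite strand. Notch3 stood at 33.8 CPM in sham and 20.4 after I/R in young mice, and 36.0 in sham and 27.5 after I/R in aged mice, so both sham libraries were above both I/R libraries. The sham libraries lay within counting error of each other, with a log2 ratio of aged over young sham of 0.09 (-0.03 to 0.21).

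Kcnj8, which encodes the Kir6.1 pore of the ATP-sensitive potassium channel in mural cells, lies at chr6:142564837-142571614 (minus strand). Its level was 30.9 CPM (28.8 to 33.1) in sham and 13.7 (12.6 to 14.9) after I/R in young mice, and 23.0 (21.6 to 24.5) in sham and 26.2 (25.0 to 27.5) after I/R in aged mice. Young I/R stood apart at 0.444 of the level of young sham, the lowest I/R over sham ratio among the members at either age. Cspg4, the NG2 proteoglycan of the mural cell surface, lies at chr9:56865033-56899870 (plus strand). Cspg4 was counted at 43.9 CPM in sham and 26.3 after I/R in young mice, and 32.9 in sham and 39.5 after I/R in aged mice. The order of the libraries was that of Pdgfrb and Kcnj8, from young sham through aged I/R and aged sham down to young I/R. The median log2 ratio of all genes took the same directions. It was -0.51 for young I/R and -0.14 for aged sham, each over young sham. For aged I/R it was 0.09 over aged sham and 0.47 over young I/R, so the order is not particular to these genes.

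Rgs5, an inhibitor of G protein signalling that is widely used as a pericyte marker, lies at chr1:169655501-169695813 (plus strand). It gave 262 CPM in sham and 230 after I/R in young mice, and 327 in sham and 278 after I/R in aged mice. At each age I/R was lower than sham, and at each condition aged was higher than young. Rgs5 held 38.8% to 44.0% of the UMIs of the 10 members, so that the pericyte sum follows it closely. Vtn, the adhesive glycoprotein vitronectin, lies at chr11:78499091-78502324 (plus strand) and was counted at 23.0 CPM in sham and 12.3 after I/R in young mice, and 27.4 in sham and 17.3 after I/R in aged mice. Vtn was the pericyte member past 1.5-fold at both ages, at 0.532 of sham in young and 0.629 of sham in aged mice.

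Myh11, the smooth muscle myosin heavy chain, lies at chr16:14194535-14291372 (minus strand). It was counted at 67.5 CPM (64.4 to 70.7) in sham and 43.2 (41.2 to 45.3) after I/R in young mice, and 57.3 (55.02 to 59.7) in sham and 88.9 (86.6 to 91.2) after I/R in aged mice. Aged I/R was the highest of the 4 libraries and young I/R the lowest, a fold of 2.06 between the I/R libraries. Acta2, smooth muscle alpha-actin, lies at chr19:34241090-34255590 (minus strand) and stood at 82.1 CPM in sham and 80.6 after I/R in young mice, and 93.1 in sham and 71.5 after I/R in aged mice. The young libraries lay within counting error of each other, and aged I/R was the lowest, which is the opposite place to that of Myh11.

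Tagln, the actin-binding protein transgelin, lies at chr9:45929619-45936058 (minus strand) and overlaps Pcsk7 and Gm48529 on the opposite strand. Its level was 28.5 CPM in sham and 27.5 after I/R in young mice, and 32.1 in sham and 34.9 after I/R in aged mice, a highest to lowest fold of 1.27 that was the smallest among the members. Whether reads were counted by strand was not given in the sources used here, so the values of Tagln and Notch3 may hold reads of the overlapping genes. Myl9, a regulatory light chain of smooth muscle myosin, lies at chr2:156775420-156781658 (plus strand). It was counted at 32.4 CPM (30.2 to 34.7) in sham and 34.7 (32.9 to 36.6) after I/R in young mice, and 53.4 (51.2 to 55.6) in sham and 29.9 (28.6 to 31.3) after I/R in aged mice. Aged sham stood apart, and young sham lay within counting error of young I/R and of aged I/R.

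The promoter of Myl9 is shown because it holds a full CArG box, the letters to which SRF binds. The sequence is from RefSeq (GRCm38.p6), 5′ to 3′ on the strand of the gene, and capitals mark a CArG box and a form of it with 1 C or G among its middle letters.
Myl9, chr2:156775258-156775419, plus strand: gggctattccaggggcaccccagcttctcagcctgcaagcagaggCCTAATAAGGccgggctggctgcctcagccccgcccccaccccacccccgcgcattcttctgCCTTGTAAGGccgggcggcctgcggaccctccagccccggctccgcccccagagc
The capitals begin 161 and 99 bases before the start of Myl9 in the RefSeq table, which lies 44 bases inside the gene of the GENCODE annotation. Promoters were searched from 250 bases before to 50 bases after the RefSeq start, a longer window than the stretch printed. The match at 161 bases is the full box, which 1.63% of the 32851 RefSeq promoters hold in that window on either strand. The other is the looser form, with which the share is 9.98%. Acta2 held 2 matches to the looser form, 84 and 34 bases before its RefSeq start. That start lies 217 bases inside the GENCODE gene, so both matches of Acta2 fall inside the gene as GENCODE draws it. Promoters of Kcnj8, Notch3, Vtn, Cspg4 and Rgs5 held neither form in this window, and the other 3 members were not in the table. A match of letters is a description and was not tested as a binding site.

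For the comparisons, a gene was counted as past the fold when its CPM ratio was at least 1.5-fold either way, and genes with under 20 UMIs in the pair of libraries were left out. In young I/R over young sham, Kcnj8, Vtn, Cspg4, Notch3 and Myh11 were past 1.5-fold lower, with log2 ratios of -1.17, -0.91, -0.74, -0.73 and -0.64. These 5 of 10 members stand beside 46.1% of 15465 genes that were past 1.5-fold lower in the same comparison, a share near that of the members, and 0 of 10 were higher beside 6.36% of all genes. The median log2 ratio was -0.73 for the pericyte members, -0.04 for the contractile members and -0.51 for all genes. The 3 contractile members other than Myh11 had log2 ratios of -0.03 (-0.11 to 0.05) for Acta2, -0.05 (-0.19 to 0.08) for Tagln and 0.10 (-0.02 to 0.23) for Myl9, so they kept their CPM where the median gene fell.

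In aged I/R over aged sham, Myh11 was past 1.5-fold higher at a log2 ratio of 0.63 (0.56 to 0.70). Myl9 was lower at -0.83 (-0.92 to -0.75) and Vtn at -0.67 (-0.79 to -0.55). The counts of 1 higher and 2 lower of 10 members stand beside 16.7% higher and 9.71% lower of 16761 genes. Within the contractile members the spread was wide, with Acta2 at -0.38 and Tagln at 0.12, and the median of the 10 members was -0.06 beside 0.09 for all genes.

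In aged sham over young sham, Myl9 was past 1.5-fold higher at a log2 ratio of 0.72 (0.60 to 0.84), 1 of 10 members beside 8.99% of 15875 genes, and 0 of 10 were lower beside 19.8% of genes. Kcnj8 and Cspg4 were at -0.43 and -0.42, and Rgs5 was at 0.32. In aged I/R over young I/R, Myh11 was higher at 1.04 (0.96 to 1.12), Kcnj8 at 0.93 (0.79 to 1.08) and Cspg4 at 0.59 (0.49 to 0.69). These 3 of 10 members stand beside 42.7% of 16491 genes, and 0 of 10 were lower beside 4.38% of genes. Acta2 and Myl9 were the members below 0 there, at -0.17 and -0.21, where the median of all genes was 0.47. The 4 comparisons use each library 2 times, so they are not independent of each other.

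**Figure D2:**
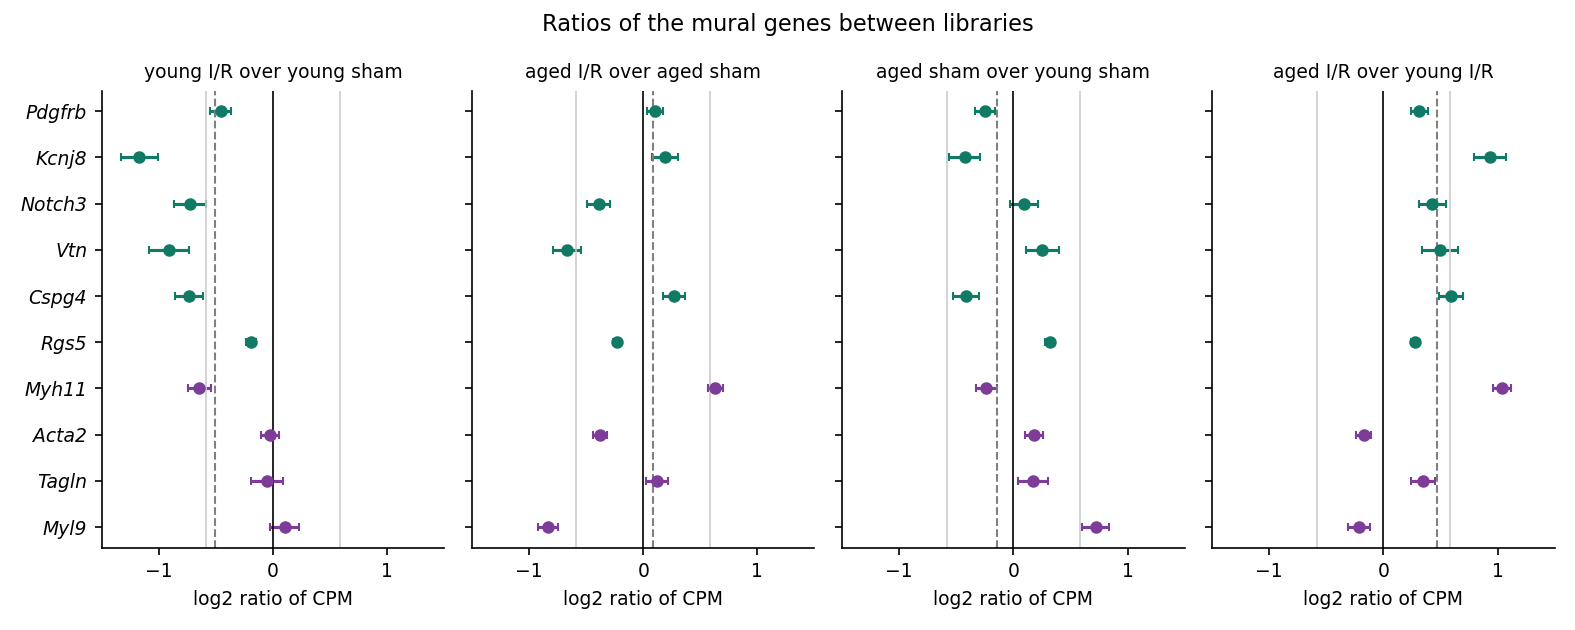
Log2 ratio of CPM for each member in the 4 comparisons, with exact conditional 95% intervals, pericyte members in green and contractile members in purple. The dashed line is the median of all genes counted in the comparison, grey lines mark 1.5-fold, and in young I/R over young sham the 3 contractile points of Acta2, Tagln and Myl9 lie to the right of the dashed line at -0.51.

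Directions depended on the scaling in the comparisons with young I/R. Scaling by the median of gene-wise ratios moved log2 ratios by 0.51 in young I/R over young sham, by -0.09 in aged I/R over aged sham, by 0.15 in aged over young sham and by -0.45 in aged over young I/R. Under it the genes past 1.5-fold in young I/R over young sham were 3136 higher and 3639 lower, in place of 984 and 7130. The members split into 1 higher (Myl9 at 0.61) and 1 lower (Kcnj8 at -0.66). Pdgfrb turned to 0.05, Rgs5 to 0.32, Acta2 to 0.48 and Tagln to 0.46, whereas Vtn stayed below 0 at -0.40, Cspg4 at -0.23, Notch3 at -0.21 and Myh11 at -0.13. In aged I/R over young I/R the members became 1 higher (Myh11 at 0.59) and 2 lower (Myl9 at -0.67 and Acta2 at -0.62), and the genes 3297 higher and 2562 lower in place of 7043 and 722. In aged I/R over aged sham Myh11 went to 0.54, below 1.5-fold, and no member changed direction.

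The scaling drops out when the groups are compared inside a library. Contractile members held 31.1% (30.4 to 31.8) of the member UMIs in sham and 34.4% (33.8 to 35.0) after I/R in young mice, and 31.8% (31.2 to 32.3) in sham and 33.2% (32.7 to 33.6) after I/R in aged mice. Both I/R libraries were above both sham libraries. The log2 ratio of contractile over pericyte UMIs was 0.21 (0.15 to 0.28) for young I/R over young sham and 0.09 (0.05 to 0.14) for aged I/R over aged sham. It was 0.04 (-0.02 to 0.10) for aged over young sham and -0.08 (-0.13 to -0.03) for aged over young I/R. These ratios rest on few genes. Without Myh11 the aged I/R over aged sham value turned to -0.23 and the aged over young I/R value went to -0.42, and without Rgs5 they were -0.03 and -0.21. In young I/R over young sham the value stayed above 0 without any 1 gene, from 0.11 without Acta2 to 0.52 without Rgs5.

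A mural gene was counted in few barcodes. Shares of barcodes with a UMI ran from 0.469% for Vtn in young I/R to 18.2% for Rgs5 in aged I/R, and at least 1 member was counted in 16.5% of barcodes in sham and 18.4% after I/R in young mice, and in 25.4% in sham and 37.5% after I/R in aged mice. That order is also the order of depth. With each barcode thinned to 200 UMIs, and barcodes below 200 left out, the shares were 12.6%, 10.2%, 13.7% and 12.7%. Acta2 fell from 5.03% to 1.42% of barcodes in aged I/R by thinning, and from 2.23% to 1.63% in young sham. Barcodes with a member are therefore not read as mural cells, and the pairs that follow were compared at equal depth.

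A pair was a barcode with at least 1 UMI of each of 2 members, and the number at equal depth was that given by independence inside 100 groups of barcodes of nearly the same total UMIs. Contractile members were counted together more often than at equal depth in each library. The 6 contractile pairs summed to 279 against 116 at equal depth in young sham, a ratio of 2.41 (2.14 to 2.71). The ratio was 1.57 (1.40 to 1.76) after I/R in young mice, and 1.67 (1.54 to 1.81) in sham and 1.13 (1.07 to 1.21) after I/R in aged mice. The 15 pericyte pairs gave 1.37 (1.27 to 1.47) in sham and 1.08 (0.99 to 1.17) after I/R in young mice, and 1.16 (1.10 to 1.22) in sham and 1.09 (1.05 to 1.13) after I/R in aged mice. The 24 pairs of a pericyte with a contractile member gave 1.15 (1.08 to 1.23), 1.03 (0.97 to 1.09), 1.06 (1.02 to 1.10) and 1.03 (1.01 to 1.06) in the same order. A barcode with more than 2 members enters several pairs, so intervals of summed pairs, here and for the marker lists below, are too narrow. As given, those for the contractile pairs did not overlap those for the mixed pairs in any library. In aged I/R they lay close, at 1.067 for the lower contractile bound and 1.063 for the upper mixed bound. Contractile intervals did not overlap those for the pericyte pairs in any library but aged I/R. That contrast rests partly on Rgs5, whose pairs hold many of the pericyte barcodes. Pdgfrb and Rgs5 gave 168 barcodes in young sham, a ratio of 1.20, beside 51 and 2.02 for Pdgfrb and Cspg4. The median ratio of single pericyte pairs was 1.46, 1.14, 1.25 and 1.35. For contractile pairs it was 2.44, 1.65, 1.71 and 1.19, so in aged I/R the pericyte median was the higher.

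Among contractile pairs, Myh11 and Tagln were found together in 52 barcodes of young sham against 14.6 at equal depth, a ratio of 3.56 (2.66 to 4.67). The same pair gave 1.97 (1.40 to 2.69) after I/R in young mice, and 1.73 (1.32 to 2.23) in sham and 1.03 (0.88 to 1.20) after I/R in aged mice. Tagln and Myl9 ran from 3.10 in young sham through 2.14 and 1.69 to 1.36 in aged I/R. Thus aged I/R, with the most UMIs per barcode, gave the lowest ratio for each of the 6 contractile pairs, and young sham, with the fewest, the highest for each of them, although Acta2 and Myl9 were close at 1.72 in young sham and 1.68 in aged sham. Depth and condition cannot be told apart over 4 libraries, and thinning each barcode to 200 UMIs left the contractile pairs at 2.54, 1.51, 1.72 and 1.14 in the same order of libraries.

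Among pericyte pairs, Kcnj8 and Notch3 were together in 19 barcodes of young sham against 7.92 at equal depth, a ratio of 2.40 (1.44 to 3.75). The pair gave 0.625 (0.129 to 1.83) after I/R in young mice, and 1.29 (0.786 to 1.99) in sham and 1.35 (1.01 to 1.78) after I/R in aged mice. Pdgfrb and Cspg4 gave 2.02 (1.501 to 2.65) in sham and 1.31 (0.88 to 1.87) after I/R in young mice, and 1.96 (1.53 to 2.46) in sham and 1.45 (1.25 to 1.67) after I/R in aged mice. Pdgfrb and Notch3 gave 2.16, 1.55, 1.68 and 1.58 in the same order, and was the pericyte pair whose interval lay above 1 in each library. Pairs that include Rgs5 stayed between 0.906 and 1.31, although Rgs5 gave the most UMIs of the members. Among mixed pairs, Notch3 and Myh11 reached 2.02 in young sham, with 0.734 after I/R in young mice, and 1.55 in sham and 1.04 after I/R in aged mice. Kcnj8 and Myl9 were found together in 0 barcodes of young sham against 7.51 at equal depth, and in 37 of aged sham against 22.7, a ratio of 1.63 (1.15 to 2.25).

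**Figure D3:**
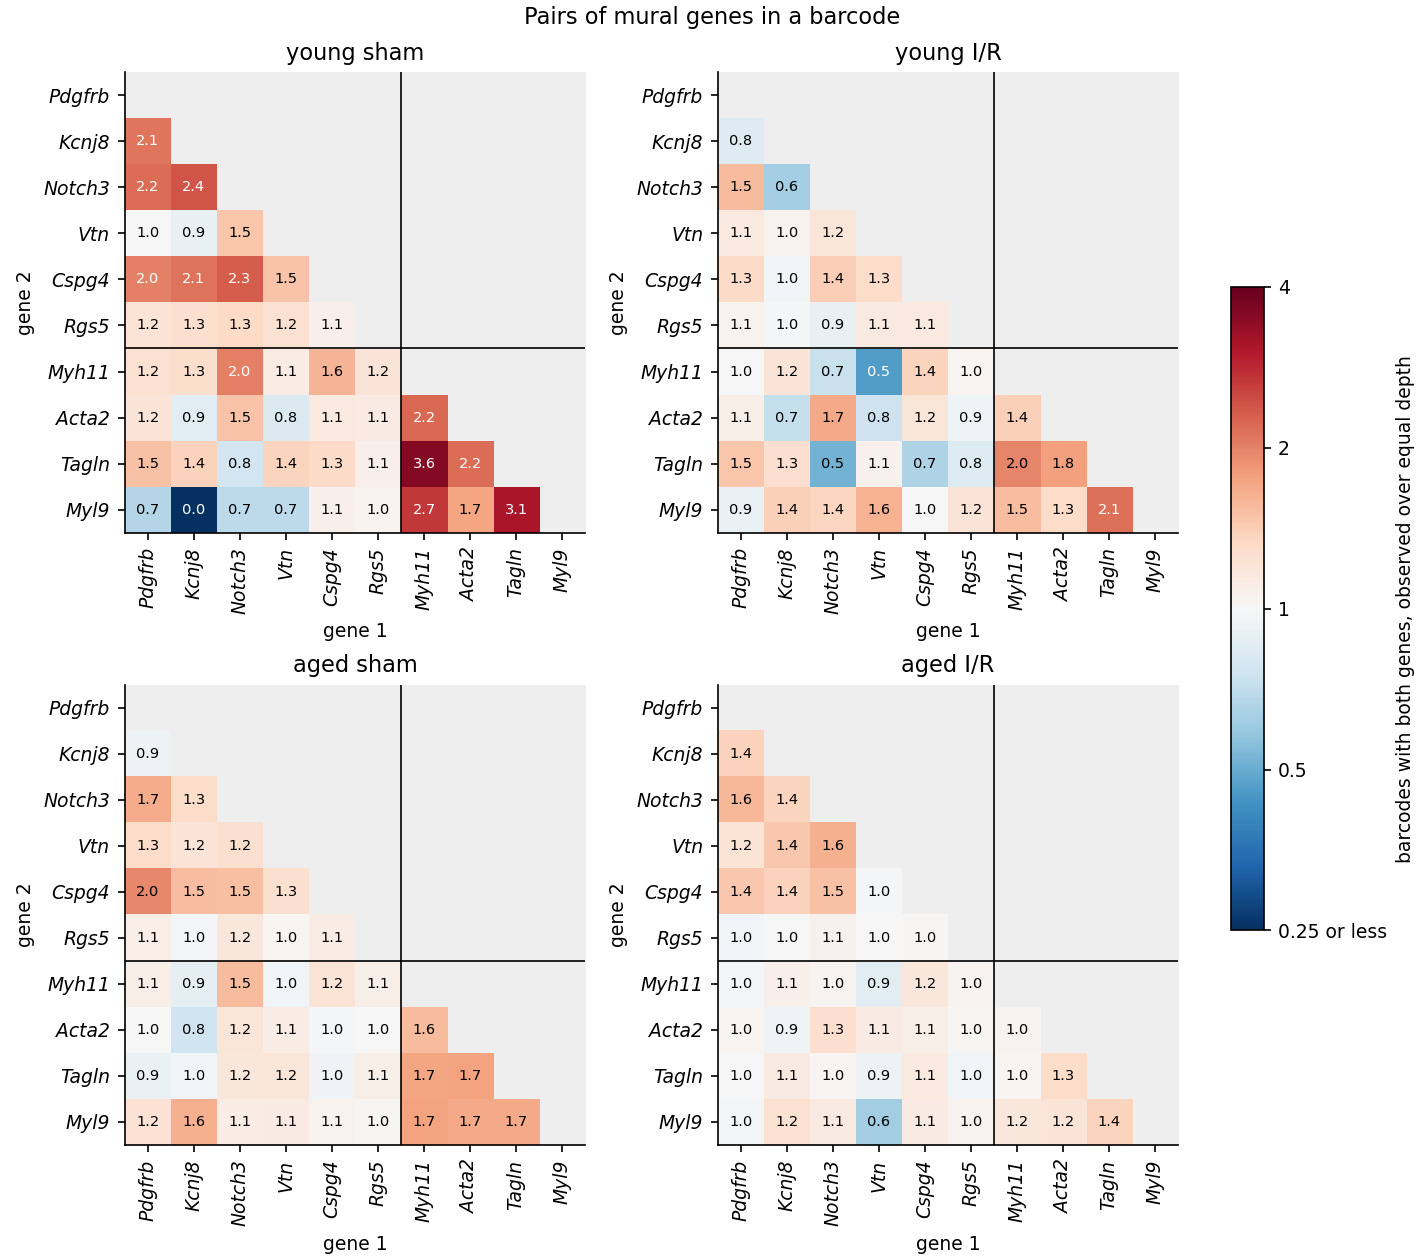
Barcodes with both genes of a pair, observed over the number at equal depth, for the 45 pairs of members in each library (colour on a log scale, values printed in the cells). Red cells gather in the triangle of contractile members at the lower right and in the triangle of pericyte members outside the Rgs5 row at the upper left, most in young sham, and the block between the groups is mixed, from 0 for Kcnj8 and Myl9 to 2.02 for Notch3 and Myh11 in young sham.

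Barcodes with several members of a group gave the same picture with fewer barcodes. Barcodes with 3 or more contractile members numbered 23 against 1.15 at equal depth in young sham, a ratio of 20.1 (12.7 to 30.1). They numbered 17 against 2.50 after I/R in young mice, and 31 against 6.22 in sham and 43 against 26.4 after I/R in aged mice, ratios of 6.79 (3.96 to 10.9), 4.98 (3.39 to 7.07) and 1.63 (1.18 to 2.19). Barcodes with 3 or more pericyte members numbered 34 against 11.6 in young sham, a ratio of 2.93 (2.03 to 4.10), and the ratios were 1.24 (0.66 to 2.12) after I/R in young mice, and 1.53 (1.16 to 1.98) in sham and 1.47 (1.28 to 1.69) after I/R in aged mice. The intervals of both groups overlapped in aged I/R alone. As for the summed pairs, this contrast may rest partly on Rgs5, which was counted in 6.99% of barcodes in young sham and 18.2% in aged I/R. Numbers without Rgs5 are not given here.

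**Figure D4:**
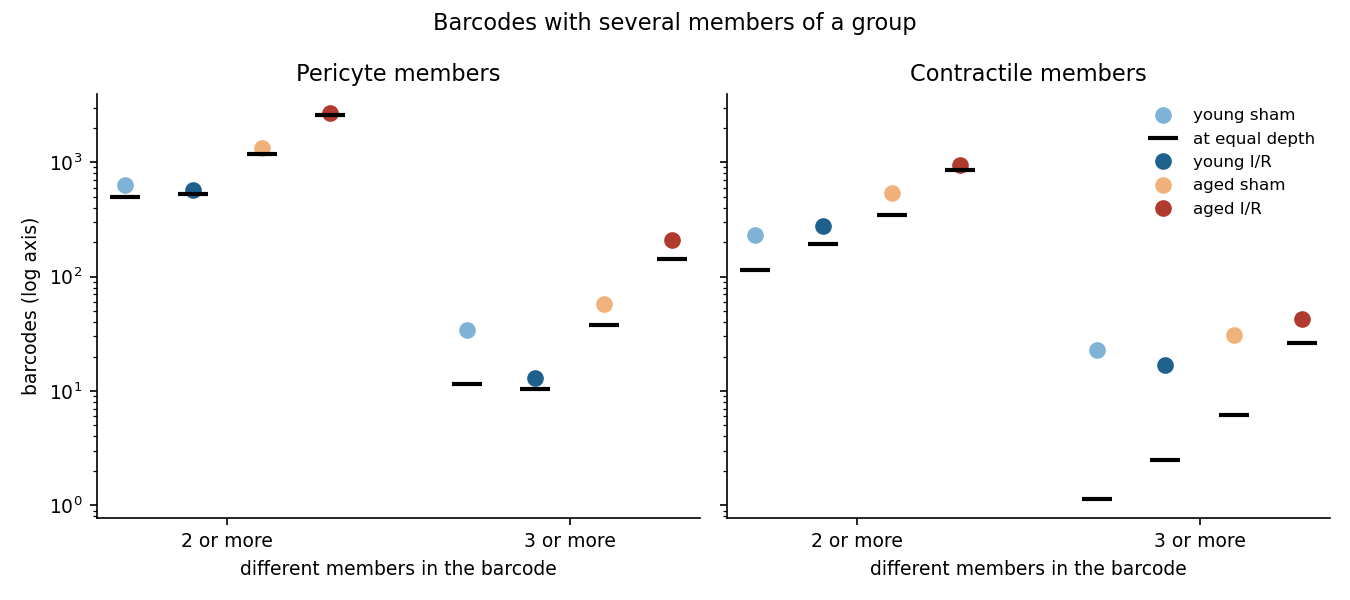
Number of barcodes with 2 or more and with 3 or more different members of a group (points, log axis, 1 per library), with black bars at the number given at equal depth. For 3 or more contractile members the gap between point and bar runs from 23 against 1.15 in young sham to 43 against 26.4 in aged I/R.

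Barcodes with genes of both groups stood near the number at equal depth, with young sham above it. That number takes the genes inside a group as independent of each other. Because genes of a group were counted together, it tends to be too high, which lowers these ratios. Mixed pairs, compared gene by gene, gave 1.15 (1.08 to 1.23) in young sham. Barcodes with at least 1 pericyte and at least 1 contractile member numbered 731 in sham and 967 after I/R in young mice, and 1877 in sham and 4135 after I/R in aged mice, with ratios of 1.08 (1.004 to 1.16), 0.992 (0.931 to 1.06), 1.01 (0.961 to 1.05) and 1.01 (0.977 to 1.04). Barcodes with 2 or more contractile members and no pericyte member gave ratios of 1.89 (1.62 to 2.18), 1.39 (1.22 to 1.58), 1.56 (1.41 to 1.71) and 1.06 (0.973 to 1.14). Those with 2 or more pericyte members and no contractile member gave 1.28 (1.18 to 1.38), 1.06 (0.966 to 1.15), 1.09 (1.03 to 1.16) and 1.04 (0.994 to 1.08). The highest number of different members in a barcode was 5 in sham and 4 after I/R in young mice, and 6 in sham and 7 after I/R in aged mice.

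The share of barcodes with a gene was then taken among barcodes that already held 2 or more other contractile members. In young sham Tagln was counted in 9.93% of such barcodes against 0.954% at equal depth, a ratio of 10.4 (5.83 to 17.2) over 151 barcodes. Myh11 gave 22.7% against 2.30%, Myl9 9.15% against 1.12% and Acta2 17.4% against 2.66%, ratios of 9.87, 8.20 and 6.55. The ratios of the 4 genes were 3.65 to 5.27 after I/R in young mice, and 2.87 to 3.43 in sham and 1.20 to 1.64 after I/R in aged mice. In aged I/R, where its level was highest, Myh11 gave the 1.20 (0.828 to 1.67), an interval that held 1. Those of Acta2, Tagln and Myl9 lay above 1 there. With 4 contractile genes, these barcodes are those with 3 or more contractile members counted once for each gene, so the 4 ratios are not independent of each other or of those numbers. Among the same barcodes, Notch3 was the pericyte member with the highest ratio in young sham at 3.14 (1.44 to 5.96), and Rgs5 was between 1.02 and 1.10 in each library.

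Among barcodes with 2 or more other pericyte members, Kcnj8 was at 3.20 (1.83 to 5.19) in young sham, Cspg4 at 2.71 (1.65 to 4.18), Pdgfrb at 2.69 (1.74 to 3.96) and Notch3 at 2.63 (1.47 to 4.34). Vtn was at 0.706 (0.146 to 2.06) there. Kcnj8 was at 0.924 (0.191 to 2.70) after I/R in young mice, and 0.617 (0.266 to 1.22) in sham and 1.53 (1.21 to 1.901) after I/R in aged mice, so it was above equal depth beyond its interval in young sham and aged I/R. Cspg4, Pdgfrb and Notch3 gave 1.32, 1.22 and 1.56 after I/R in young mice, and 1.77, 1.62 and 1.71 in sham and 1.47, 1.44 and 1.74 after I/R in aged mice. Rgs5 gave 1.40 (0.92 to 2.05), 0.865 (0.415 to 1.59), 1.04 (0.773 to 1.37) and 1.03 (0.883 to 1.19) over the 4 libraries, and Tagln stayed between 0.691 and 1.09. As a background, Tagln was counted in 0.821% of the 487 young sham barcodes with 2 or more macrophage markers, against 1.06% at equal depth, where the median depth was 328 UMIs, beside 348 UMIs in the barcodes with 2 or more other contractile members. Rgs5 was counted in 9.24% of those macrophage barcodes and in 12.1% of the barcodes with 2 or more other pericyte members.

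**Figure D5:**
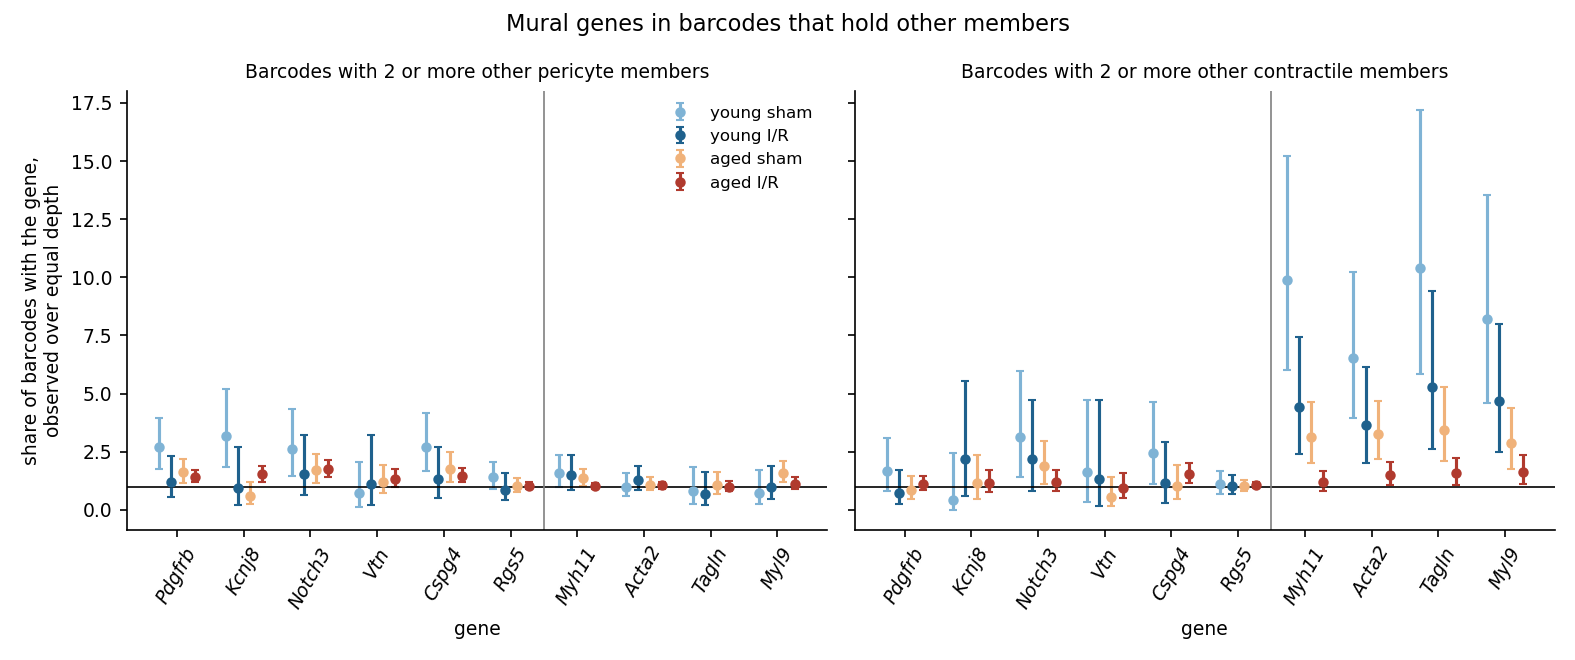
Share of barcodes with each gene, observed over equal depth, among barcodes with 2 or more other pericyte members (left) and with 2 or more other contractile members (right), with exact 95% Poisson intervals and 1 colour per library. The 4 contractile genes stand high on the right in young sham, from 6.55 to 10.4, and between 0.734 and 1.57 on the left, where Myl9 reaches 1.61 in aged sham. Rgs5 is between 0.865 and 1.40 on the left and between 1.02 and 1.10 on the right.

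The same gene could also be counted more than once in a barcode. Myh11 had 2 or more UMIs in 72 barcodes of young sham against 19.5 expected at equal depth, a ratio of 3.69 (2.88 to 4.64), and in 317 against 227 in aged I/R, a ratio of 1.40 (1.25 to 1.56). Pdgfrb gave 2.33 (1.74 to 3.06) in young sham and 1.60 (1.38 to 1.84) in aged I/R. Rgs5 gave 1.21 (1.08 to 1.35) in sham and 1.07 (0.97 to 1.17) after I/R in young mice, and 1.01 (0.94 to 1.07) in sham and 1.03 (0.98 to 1.08) after I/R in aged mice. Rgs5 was thus spread over barcodes much as its level and their depth would place it, and the highest count in a barcode was 7 UMIs, for Myh11 in aged I/R.

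Marker lists of other cell types show how far pairs stand out in these libraries. Pairs within the list of 10 macrophage markers gave 1.48 (1.36 to 1.61) in young sham and 1.04 (0.945 to 1.15), 1.11 (1.07 to 1.16) and 1.12 (1.08 to 1.15) in the other libraries. Pairs of 10 fibroblast markers gave 1.20, 1.06, 1.06 and 1.04, and pairs of 10 endothelial markers 1.13, 1.03, 1.03 and 1.03. Pairs of the 3 atrial markers (Myl4, Myl7 and Sln) gave 12.8 (11.5 to 14.2) in sham and 2.32 after I/R in young mice, and 3.58 in sham and 1.88 after I/R in aged mice. Pairs of 5 erythroid markers gave 2.05, 1.36, 1.14 and 1.18, above the pericyte pairs in each library but aged sham. Macrophage pairs were above the pericyte pairs in young sham and aged I/R, and atrial pairs in each library. In each of these lists young sham was the highest library, as it was for the mural genes. Pairs of 5 Schwann cell markers went the other way, at 0.915 (0.395 to 1.80) in young sham and 1.39 (1.07 to 1.77) in aged I/R, with few barcodes. Pairs of 5 neutrophil markers gave 3.55 (0.43 to 12.8) in young sham from 2 observed and 1.26 (1.09 to 1.44) in aged I/R, and pairs of 12 cardiomyocyte markers stood within 0.01 of 1 in each library.

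Members were next set against markers of other cell types in the same barcode. Barcodes with 2 or more members held an endothelial marker at ratios of 1.11 (1.02 to 1.20) in young sham and 0.998 to 1.03 in the other libraries, and the summed endothelial markers were 1486 CPM in sham and 1244 after I/R in young mice, and 1604 in sham and 1416 after I/R in aged mice. Fibroblast markers summed to 1266, 1009, 1759 and 1273 CPM, macrophage markers to 337, 236, 534 and 426 CPM and neutrophil markers to 14.2, 95.5, 23.2 and 95.7 CPM in the same order, with no marker of these lists at 0. The endothelial, fibroblast and macrophage sums had the same lowest and highest library as the pericyte sum, and the part of cell composition in the mural levels was not tested. Myl9 was counted with an atrial marker at ratios of 1.21 (0.805 to 1.75), 1.17 (0.985 to 1.39), 1.31 (1.08 to 1.56) and 1.19 (0.997 to 1.40), while the atrial sum was 118, 230.0, 104 and 78.7 CPM, and its part in the level of Myl9 was not tested. Kcnj8 gave 1.35 (1.04 to 1.72) after I/R in young and 1.21 (1.01 to 1.44) after I/R in aged mice, intervals that overlapped those of Myl9. Notch3 gave 1.27 (1.02 to 1.56) after I/R in young mice. Intervals of Kcnj8 and Notch3 with atrial markers held 1 in their other libraries. Other lists gave intervals without 1 too. Kcnj8 was at 1.30 (1.05 to 1.59) with a macrophage marker in young sham and 1.97 (1.20 to 3.04) with a neutrophil marker in aged sham. With an erythroid marker it was at 0.854 (0.738 to 0.984) in young I/R. Myl9 was at 1.29 (1.004 to 1.64) with a neutrophil marker in young I/R. Among so many intervals some leave out 1 by counting error alone, so no list is singled out.

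Other genes were ranked by how often they were counted in barcodes with 2 or more members, by the lowest of the 4 libraries' ratios over equal depth among 5804 genes found in enough barcodes. The 10 at the top were Ano1, Tbx2, Lmod1, Ppp1r14a, Higd1b, Arhgef17, Pear1, Pias3, Fhod1 and Rgcc. Ano1, a calcium-activated chloride channel of smooth muscle and pericytes, had ratios of 1.84 (0.977 to 3.14) in sham and 2.22 (1.15 to 3.87) after I/R in young mice, and 1.47 (0.977 to 2.12) in sham and 1.51 (1.27 to 1.78) after I/R in aged mice. Lmod1, which nucleates smooth muscle actin filaments, gave 3.20, 1.72, 1.53 and 1.32 in the same order. Higd1b, a pericyte marker, gave 2.15, 1.27, 1.34 and 1.32, and Ppp1r14a, the CPI-17 inhibitor of myosin phosphatase, gave 2.34, 1.88, 1.30 and 1.35. The list is a ranking with no test, each ratio in young sham and young I/R rests on 10 to 29 barcodes, and for Pias3 and Fhod1 the interval held 1 in each library. Genes were ranked only with at least 10 such barcodes in every library. A gene with under 10 at equal depth could thus enter only at a ratio above 1. That was so in young sham and young I/R for Ano1 (7.08 and 5.41 at equal depth), Lmod1 (3.75 and 5.81), Higd1b and Ppp1r14a. Their ratios there are raised by the selection. Cnn1, with a lowest ratio of 1.47, was left out for too few barcodes.

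The wider mural program was read from lists of 50 other genes: pericyte genes, contractile genes, and genes of the PDGF, Notch and angiopoietin pathways. A further list, called the SRF list, held the regulators Srf, Myocd, Mrtfa, Mrtfb, Klf4, Foxc1 and Foxc2. In young I/R over young sham 3 of 50 were past 1.5-fold higher and 23 lower, beside 6.36% and 46.1% of all genes. The counts were 7 higher and 5 lower in aged I/R over aged sham, beside 16.7% and 9.71%. In aged over young sham 5 were higher and 5 lower beside 8.99% and 19.8%, and in aged over young I/R 25 were higher and 2 lower beside 42.7% and 4.38%. Under the median of gene-wise ratios the young I/R over young sham counts were 8 higher and 6 lower, and the aged over young I/R counts 7 higher and 5 lower.

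Notch genes formed the list with the lowest median in young I/R over young sham, -0.96 beside -0.51 for all genes, with 9 of 12 past 1.5-fold lower and 0 higher, beside 46.1% and 6.36% of all genes. Under the median of gene-wise ratios 4 of 12 were lower (Dll1, Hey1, Heyl and Hes1) and 1 higher (Notch4). Heyl, a Notch target of mural cells, was counted at 15.0 CPM in sham and 5.85 after I/R in young mice, and 8.46 in sham and 7.25 after I/R in aged mice. Hes1, a target in many cell types, stood at 90.3, 39.7, 60.1 and 45.5 CPM in the same order. Both were highest in young sham, as was the endothelial ligand Dll4, at 13.4 CPM. The endothelial ligand Jag1 was at 21.9 CPM in young sham and 21.2 CPM in aged I/R. Its aged over young sham log2 ratio of -0.12 (-0.28 to 0.03) lay within counting error. In aged I/R over aged sham 0 of 12 were past 1.5-fold in either direction, and the median was 0.07.

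Among PDGF ligands, Pdgfb, which endothelium makes for the PDGFR-beta receptor, was counted at 67.4 CPM in sham and 34.6 after I/R in young mice, and 53.6 in sham and 96.6 after I/R in aged mice. I/R over sham thus gave a log2 ratio of -0.96 (-1.07 to -0.86) in young mice and 0.85 in aged mice, beside medians of all genes of -0.51 and 0.09. Under the median of gene-wise ratios Pdgfb was not past 1.5-fold in young mice and stayed past it in aged mice. The difference between the ages was not tested. In the SRF list, Myocd, which encodes myocardin, was at 65.8, 36.9, 38.7 and 63.3 CPM in the same order, and Srf at 9.91, 8.60, 5.83 and 11.0 CPM. Cardiomyocytes express Myocd and Srf too. In barcodes with 2 or more members Myocd stood at 0.818 to 1.09 and Srf at 0.587 to 1.33 of the number at equal depth. For Srf this rests on as few as 3 such barcodes in a library.

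Of 12 other pericyte genes, 6 were past 1.5-fold lower and 1 higher in young I/R over young sham, near the 46.1% of all genes that were lower. Under the median of gene-wise ratios 0 were lower and 3 higher. Abcc9, the SUR2 partner of the KCNJ8 pore, was counted at 194 CPM in sham and 108 after I/R in young mice. In aged mice it was at 157 CPM in sham and 171 after I/R. The order of libraries was that of Kcnj8, and the median of all genes took the same directions between libraries. In barcodes with 2 or more members Abcc9 stood at 1.04 to 1.22, and the part of mural cells in its level was not tested. Gucy1a1 and Gucy1b1, the subunits of soluble guanylate cyclase, were also lower in young I/R, with Gucy1a1 at 29.3 CPM in sham and 14.7 after I/R in young mice, and 24.9 in sham and 28.4 after I/R in aged mice. Art3, the gene past 1.5-fold higher, was at 0.71 in young and 0.66 in aged mice and stood at 0.998 to 1.07 in barcodes with 2 or more members. Of 13 other contractile genes, 4 were lower and 2 higher in young I/R over young sham, beside 46.1% and 6.36% of all genes, and 2 were lower and 4 higher under the median of gene-wise ratios. Smtn, which encodes smoothelin, was lower at 76.0 CPM in young I/R against 373 in young sham, and Des, the desmin gene of heart muscle as well as smooth muscle, was higher at 2304 against 1185 CPM. Smtn and Des, like Art3, stood near 1 in barcodes with 2 or more members, at 0.877 to 1.07 for Smtn. Cnn1, calponin of smooth muscle, gave 5.75, 2.49, 1.47 and 1.59, but from as few as 5 such barcodes in a library.

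Gene length moved with the ratios. In young I/R over young sham the median log2 ratio over all genes went from -0.37 for genes spanning under 10 kb to -0.75 for those over 100 kb, and in aged I/R over young I/R from 0.32 to 0.73. Kcnj8, Vtn, Tagln and Myl9 span under 10 kb, Acta2 14.5 kb, and Pdgfrb, Notch3, Cspg4, Rgs5 and Myh11 between 30 and 100 kb. The nuclear RNA Malat1 took 7.34% of UMIs in sham and 2.22% after I/R in young mice, and 2.88% in sham and 4.33% after I/R in aged mice. The part of nuclear RNA in the levels was not tested. Kcnj8 and Vtn, at -1.17 and -0.91 in young I/R over young sham, lay below the median of -0.37 for genes of their span, and Tagln and Myl9 lay above it. For 30 to 100 kb the median was -0.57, with Notch3 (-0.73), Cspg4 (-0.74) and Myh11 (-0.64) below it and Pdgfrb (-0.46) and Rgs5 (-0.19) above it. Acta2, at -0.03, lay above the -0.42 of 10 to 30 kb. Most pericyte members are long and most contractile members short, and the part of length in their contrast was not tested.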

How the data were processed

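Left ventricles were profiled on the 10x Chromium 3' system. Per the labels and the study's methods, the authors aligned reads to mm10 with Cell Ranger 6.0.2 and deposited filtered matrices of UMI counts per gene and barcode, with no normalization. Intron and strand settings are not given in the sources used here. Labels give nuclear RNA, the paper single cells. No barcodes were removed, no doublets were called and the authors' cell names were not used.

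Counts were summed over all barcodes and scaled to CPM with Python 3.11.15, numpy 2.4.6, scipy 1.17.1 and pandas 2.3.3 (matplotlib 3.10.9 for figures). Ratios, shares and pairs carry exact 95% intervals for counting error only. Those of summed pairs take the pairs as independent and are too narrow. Pairs were compared with independence inside 100 strata of total UMIs. Genes needed at least 20 UMIs over 2 libraries for fold counts. Scripts were tested on simulated data. Named genes are the members, the list genes and the 10 non-members ranked highest in barcodes with 2 or more members (found in at least 200 barcodes in all and 10 such barcodes per library). Gene coordinates are from GENCODE M21 (GRCm38). Members and lists were chosen with earlier results of these data known. Alternatives were other scalings, barcode filters, folds, strata and leaving out genes.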

Additional observations from a re-analysis of the deposited data

Results flagged for a closer look

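Pdgfrb, Kcnj8, Cspg4 and Myh11 moved in opposite directions with I/R in young and in aged mice, with intervals that left out 0 at both ages. Tagln (-0.05 and 0.12) and Myl9 (0.10 and -0.83) also differed in sign, but their intervals in young mice held 0. The share of all genes with opposite directions was not counted, so the number of members is not read as particular to them. I/R over sham gave log2 ratios of -0.46 in young and 0.10 in aged mice for Pdgfrb, -1.17 and 0.19 for Kcnj8, -0.74 and 0.27 for Cspg4, and -0.64 and 0.63 for Myh11. With 1 library per condition the difference between the ages was not tested. Under scaling by the median of gene-wise ratios Pdgfrb was at 0.05 and 0.01, so the opposite directions did not hold for it. They held for Cspg4, at -0.23 and 0.18, and for Myh11, at -0.13 and 0.54, and Kcnj8 was at -0.66 in young mice and 0.10 (-0.015 to 0.21) in aged mice, an interval that holds 0. Under that scaling Myl9 (0.61 and -0.92), Acta2 (0.48 and -0.47) and Rgs5 (0.32 and -0.32) also took opposite directions. In the same comparisons the median of all genes was -0.51 in young and 0.09 in aged mice.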

How the results depend on the processing

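Of 496 values recomputed under another setting, 297 stayed the same within counting error or, for counts, within 1.5 times, and 199 moved. Of the values past 1.5-fold, 0 took the opposite sign. Scaling could not have turned them, because its largest shift was 0.51 in log2, below the 0.58 of 1.5-fold. Smaller ratios did change direction. No paired analysis was possible because each condition has 1 library and the labels give no replicate pairs. Scaling by the median of gene-wise ratios put the pericyte sum at log2 ratios of 0.12 and -0.25 for I/R over sham in young and in aged animals, and at 0.27 and -0.10 for aged over young within sham and within I/R, and the contractile sum at 0.33, -0.16, 0.31 and -0.18, so that the first and the last changed direction for both sums. The cause was not tested. A total without Gm42418, Malat1 and mitochondrial genes gave -0.25, -0.25, 0.20 and 0.19 for the pericyte sum and -0.033, -0.16, 0.24 and 0.11 for the contractile sum. Barcodes with at least 200 detected genes gave -0.28 in young I/R over young sham and 0.22 in aged over young sham for the pericyte sum, -0.067 and 0.29 for the contractile sum, and 1.25 for the mixed pairs of young sham.

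Genes past the fold, higher and lower in turn, were 504 and 4177, 947 and 506, 553 and 1145, and 3512 and 261 in the same order of comparisons at 2-fold. At 1.5-fold and without the limit on UMIs, 1762 were higher in young I/R over young sham and 3742 lower in aged I/R over aged sham. There were then 2456 higher and 5217 lower in aged over young sham, and 2460 lower in aged over young I/R. Also at 1.5-fold, the median of gene-wise ratios gave 3136 higher and 3639 lower in young I/R over young sham. In aged over young I/R it gave 3297 and 2562, where the total without abundant transcripts gave 1156 lower. Members past 2-fold were 1 lower in young I/R over young sham, 0 higher and 0 lower in aged I/R over aged sham, 0 higher in aged over young sham and 1 higher in aged over young I/R. At 1.5-fold under the median of gene-wise ratios, members past the fold were 1 higher and 1 lower in the first comparison. They were 0 higher in the next and 1 higher and 2 lower in the last. Under the total without abundant transcripts, also at 1.5-fold, 3 were lower in the first and 0 higher in the next. Of the 50 other mural and signalling genes, 0 higher and 8 lower, 1 and 0, 1 and 1, and 8 and 1 were past 2-fold. At 1.5-fold under the median of gene-wise ratios, 8 were higher and 6 lower in the first and 7 and 5 in the last comparison. The total without abundant transcripts gave 14 higher in the last at 1.5-fold. Barcodes with at least 200 detected genes gave 1 lower in the last at 1.5-fold.

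Leaving out each member in turn moved the contractile share from 21.6% to 50.9% in young sham, 22.9% to 59.8% in young I/R, 21.98% to 56.8% in aged sham and 23.1% to 56.2% in aged I/R, the highest without Rgs5 in each. The contractile over pericyte log2 ratio ran from 0.11 to 0.52 in young I/R over young sham, -0.23 to 0.27 in aged I/R over aged sham, -0.087 to 0.34 in aged over young sham and -0.42 to 0.19 in aged over young I/R. Its direction rested on Myh11 and Rgs5 in aged I/R over aged sham, on Myl9, Pdgfrb and Cspg4 in aged over young sham and on Acta2 and Myl9 in aged over young I/R. The median depth of 244 to 675 UMIs per barcode limits the pairs, which rest on few barcodes.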
